A study of Mus with 8 samples.

Results

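The EGFR family of receptor tyrosine kinases was examined with its ligands and inhibitors in mouse liver during regeneration. A total of 10 genes were taken by symbol: the receptors Egfr, Erbb2 and Erbb3, the inhibitors Errfi1 and Lrig1, and the ligands Areg, Hbegf, Tgfa, Ereg and Btc. Of these, 9 matched a row by symbol among the 23185 rows with a gene symbol, and Areg was not analysed here. No filter on level was applied, so all 9 entered the comparison. The samples were liver tissue taken 48 h after partial hepatectomy, an operation that removes part of the liver and starts regrowth of the rest. One group, labelled Ctrl, held 4 samples, and the other, labelled LKB1 KO, held 4 samples labelled as knockouts of the kinase LKB1 (gene Stk11). Each sample was hybridised to its own expression array. The sources used here give no strain, sex or age. They also do not say how or in which liver cells Stk11 was deleted, whether the controls carried the same alleles or agents, or whether each sample was a separate animal.

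Receptors of this family sit in the cell membrane and form pairs when a ligand binds, after which their kinase domains phosphorylate each other and start the RAS-ERK and PI3K-AKT cascades. EGFR binds EGF, TGF-alpha, amphiregulin and HB-EGF, among others. ERBB2 has no known ligand of its own and acts as a partner. ERBB3 binds neuregulins, has a weak kinase, and couples its partners to PI3K. In liver, hepatocytes express EGFR and ERBB3, and EGFR signalling is one of the mitogenic inputs that drive hepatocytes into division after partial hepatectomy.

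Stk11 was lower in the LKB1 KO arrays, as a check of the labels. Its log2 value ranged from 6.46 to 6.76 in Ctrl and from 3.97 to 4.84 in LKB1 KO (difference -2.39, SE 0.19, limma adjusted p = 0.000453). Array medians lay between 3.75 and 3.96 log2 units and array pairs correlated at 0.960 to 0.988. LKB1 KO 2 stood farthest from its group (highest median and mean correlation 0.974), and Ctrl 4 had the lowest such correlation in its group (0.976). A linear model (limma) tested each gene, with a Benjamini-Hochberg adjusted p under 0.05 as the threshold for a call. It called 458 genes, 1.98% of the 23185: 345 (1.49%) lower and 113 (0.487%) higher in LKB1 KO. The share of calls that were higher was 24.7%, and 36.8% after quantile normalization. The 6 hepatocyte markers (Alb, Apoa1, Ttr, Hnf4a, Cps1 and Tat) were well expressed in both groups, with a mean log2 value per array of 11.5 to 11.6 in Ctrl and 11.4 to 11.5 in LKB1 KO. None of those 6 was called.

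2 of the 3 receptor genes, Erbb3 and Egfr, fell in LKB1 KO livers, and no other gene of the set passed the test. Erbb3 was lowered to 35.5% of its Ctrl level (95% confidence interval 28.1% to 44.8%) and Egfr to 55.7% (45.9% to 67.7%). The third receptor gene, Erbb2, was at the background of the arrays in most samples. The 2 calls of 9 compare with 1.98% of genes called across the table. The set was chosen with earlier results of these data known, which limits comparison of its counts with all genes. The median difference over the 9 genes was -0.06 log2 units, beside 0.02 over all genes. Its members were as a rule steady between replicates, with a median within-group SD of 0.17 log2 units against 0.23 over all genes.

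Egfr (Entrez gene 13649), the receptor for most of the ligands considered here, was among the strongly hybridising genes. Its log2 values were 10.73, 10.80, 10.52 and 10.77 in Ctrl 1 to 4 and 10.02, 9.67, 9.86 and 9.89 in LKB1 KO 1 to 4. Each LKB1 KO array lay below each Ctrl array, with a gap of 0.50 between the nearest arrays of the groups. The means were 10.71 ± 0.13 and 9.86 ± 0.14 (SD, n = 4), a difference of -0.84 (SE 0.13, 95% confidence interval -1.12 to -0.56) or 1.79-fold lower. The limma adjusted p was 0.00832, and the gene ranked 124th by p. All of its values stood well above a background gauge of 3.73 log2 units, the 95th percentile of mean levels over 1350 olfactory and vomeronasal receptor genes.

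Erbb3 (Entrez gene 13867), the neuregulin receptor, showed the largest difference of the 9 genes. Ctrl 1 to 4 gave log2 values of 7.43, 6.89, 6.86 and 7.03, and LKB1 KO 1 to 4 gave 5.39, 5.59, 5.72 and 5.54. The groups were 1.14 log2 units apart at their nearest arrays, a distance larger than the spread within either group. The means were 7.05 ± 0.26 and 5.56 ± 0.14 (SD, n = 4), and the difference of -1.50 (SE 0.15, 95% confidence interval -1.83 to -1.16) was 2.82-fold lower. With a limma adjusted p of 0.00147, it ranked 18th by p among the 23185 genes. LKB1 KO 3, the array with the highest remaining Stk11 value (4.84), also had the highest Erbb3 value among the LKB1 KO arrays. Its Egfr value was not the highest of them. LKB1 KO 2, with the lowest Stk11 value (3.97), had the next highest Erbb3 value (5.59). A relation of Erbb3 to remaining Stk11 was not tested.

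Erbb2 (Entrez gene 13866), the ligandless partner receptor, gave log2 values of 3.18, 3.48, 3.12 and 3.51 in Ctrl 1 to 4 and 3.36, 3.76, 3.13 and 3.07 in LKB1 KO 1 to 4. Of these 8 values, only that of LKB1 KO 2 exceeded the background gauge. That array also had the highest median over all genes. The groups overlapped, and the difference of 0.01 (SE 0.18, 95% confidence interval -0.38 to 0.40, limma adjusted p = 0.988) changed sign under quantile normalization and median centring. At this level a fall of the transcript could not be measured. For a rise, the interval of the signal reaches at most 1.32 times the Ctrl level.

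The falls of Erbb3 and Egfr were unequal. Within each array the log2 value of Erbb3 minus that of Egfr was -3.30, -3.90, -3.66 and -3.74 in Ctrl 1 to 4 and -4.64, -4.08, -4.14 and -4.35 in LKB1 KO 1 to 4. These differences did not overlap between the groups, and the change of their mean was -0.65 log2 units, a further 1.57-fold drop of Erbb3 relative to Egfr. The exact two-sided permutation p over the arrays was 0.0286, the smallest that 4 against 4 can give. Adjustment over the 3 receptor pairs left this permutation p unchanged, because all 3 pairs gave the smallest value. The adjustment was thus no further hurdle. Without LKB1 KO 1 the change was -0.54 and its exact permutation p was 0.0571, above the threshold, while each of the other 7 single omissions kept it at 0.0286. Both pairs with Erbb2 also gave 0.0286 (-1.51 for Erbb3 and -0.86 for Egfr, relative to Erbb2), but rest on a gene at background.

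**Figure D1:**
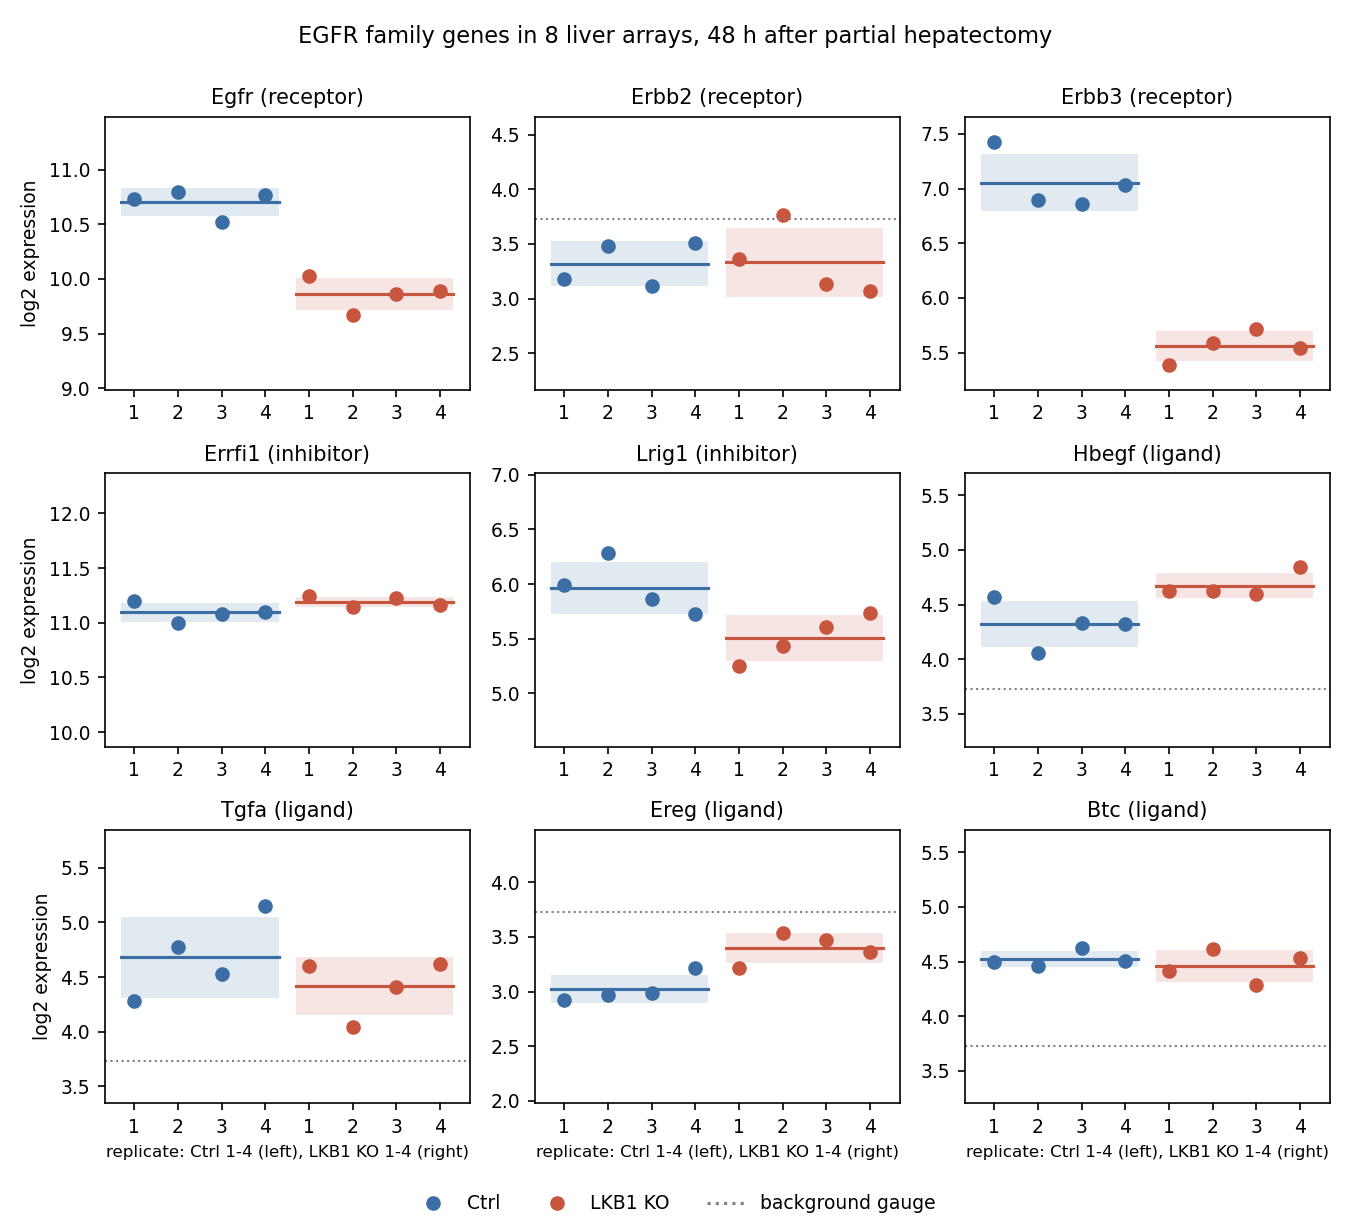
Log2 expression of the 9 genes in each of the 8 arrays (blue Ctrl 1 to 4, red LKB1 KO 1 to 4), with group means as lines and ± 1 SD as shading, n = 4. Every panel spans the same number of log2 units. The dotted line is the background gauge at 3.73, which lies below the range shown for Egfr, Erbb3, Errfi1 and Lrig1. Egfr and Erbb3 separate by 0.50 and 1.14 log2 units, whereas the other panels overlap or nearly touch.

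The intracellular and membrane inhibitors did not pass the test. Errfi1 encodes MIG6, a feedback inhibitor that binds the EGFR kinase domain. Its log2 values were 11.20, 10.995, 11.08 and 11.10 in Ctrl 1 to 4 and 11.24, 11.15, 11.22 and 11.16 in LKB1 KO 1 to 4. It varied least of the set, the groups overlapped, and the difference was 0.10 (SE 0.11, limma adjusted p = 0.770). The 95% confidence interval of -0.15 to 0.34 allows at most a 1.27-fold higher level. The signal was strong in both groups, so background does not limit this value.

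Lrig1 encodes a membrane protein that promotes the degradation of EGFR family receptors. Its log2 values were 5.995, 6.28, 5.86 and 5.73 in Ctrl 1 to 4 and 5.25, 5.44, 5.61 and 5.73 in LKB1 KO 1 to 4. LKB1 KO 4 overlapped with Ctrl 4, while the other LKB1 KO arrays lay below the Ctrl range. The difference was -0.46 (SE 0.16, 95% confidence interval -0.81 to -0.11), with an unadjusted p of 0.0150 in limma that became 0.210 after adjustment. Leaving out single arrays moved the difference between -0.54 and -0.36.

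The 4 ligand genes measured had low signals and did not pass the test. Hbegf encodes heparin-binding EGF-like growth factor, a membrane-anchored ligand that is shed from the cell surface. Its log2 values were 4.57, 4.06, 4.33 and 4.32 in Ctrl 1 to 4 and 4.62, 4.63, 4.60 and 4.85 in LKB1 KO 1 to 4. The groups did not overlap, but the nearest arrays were 0.03 log2 units apart. The difference was 0.35 (SE 0.14, 95% confidence interval 0.05 to 0.66, limma adjusted p = 0.289) and dropped to 0.26 without Ctrl 2.

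Ereg, the gene of epiregulin, had log2 values of 2.92, 2.97, 2.99 and 3.22 in Ctrl 1 to 4 and 3.22, 3.54, 3.47 and 3.36 in LKB1 KO 1 to 4. All 8 values lay below the background gauge, and the groups were separated by 0.003 log2 units. The difference was 0.37 (SE 0.13, 95% confidence interval 0.09 to 0.66, limma adjusted p = 0.205). Of the 9 genes 4 (Egfr, Erbb3, Hbegf and Ereg) had groups that did not overlap, a condition met by 8.84% of all genes.

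Tgfa, which encodes the hepatocyte mitogen TGF-alpha, was the most variable of the set. Ctrl 1 to 4 gave log2 values of 4.28, 4.77, 4.52 and 5.15, and LKB1 KO 1 to 4 gave 4.60, 4.04, 4.41 and 4.62. The groups overlapped, with the highest value in Ctrl 4 and the lowest in LKB1 KO 2. Its difference of -0.27 (SE 0.20, 95% confidence interval -0.71 to 0.18, limma adjusted p = 0.638) became 0.02 without both of those arrays. Btc, the gene of betacellulin, had log2 values between 4.46 and 4.63 in Ctrl and between 4.28 and 4.62 in LKB1 KO. For Btc the difference was -0.06 (SE 0.12, 95% confidence interval -0.33 to 0.21, limma adjusted p = 0.881), and its interval runs from 0.795 to 1.15 times the Ctrl level.

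**Figure D2:**
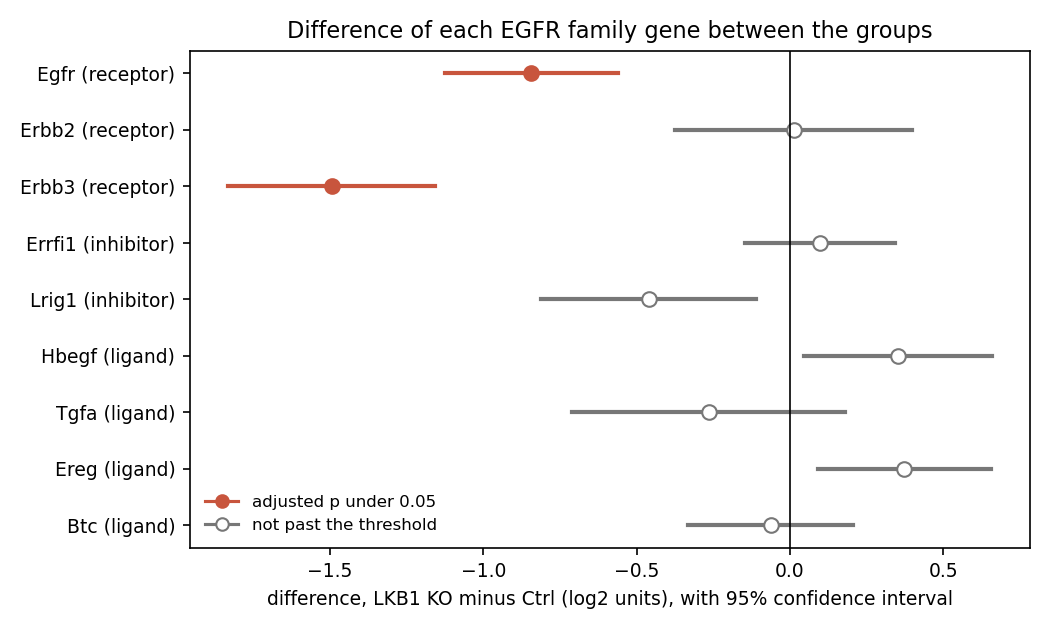
Difference of each gene, LKB1 KO minus Ctrl in log2 units, with its 95% confidence interval from limma (4 arrays per group). Filled red points passed an adjusted p of 0.05: Erbb3 at -1.50 and Egfr at -0.84. The intervals of Lrig1, Hbegf and Ereg leave out 0 but their adjusted p lay between 0.205 and 0.289.

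The calls of Egfr and Erbb3 did not rest on 1 array. With each of the 8 arrays left out in turn, the difference of Egfr lay between -0.91 and -0.78 (limma adjusted p at most 0.0352) and that of Erbb3 between -1.56 and -1.37 (at most 0.00746). Without both LKB1 KO 2 and Ctrl 4, the arrays that stood apart, the differences were -0.76 (adjusted p = 0.0315) and -1.51 (0.00854). Under the same treatment Errfi1, Lrig1, Hbegf, Ereg and Btc kept their sign and none of the other 7 genes was called.

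**Figure D3:**
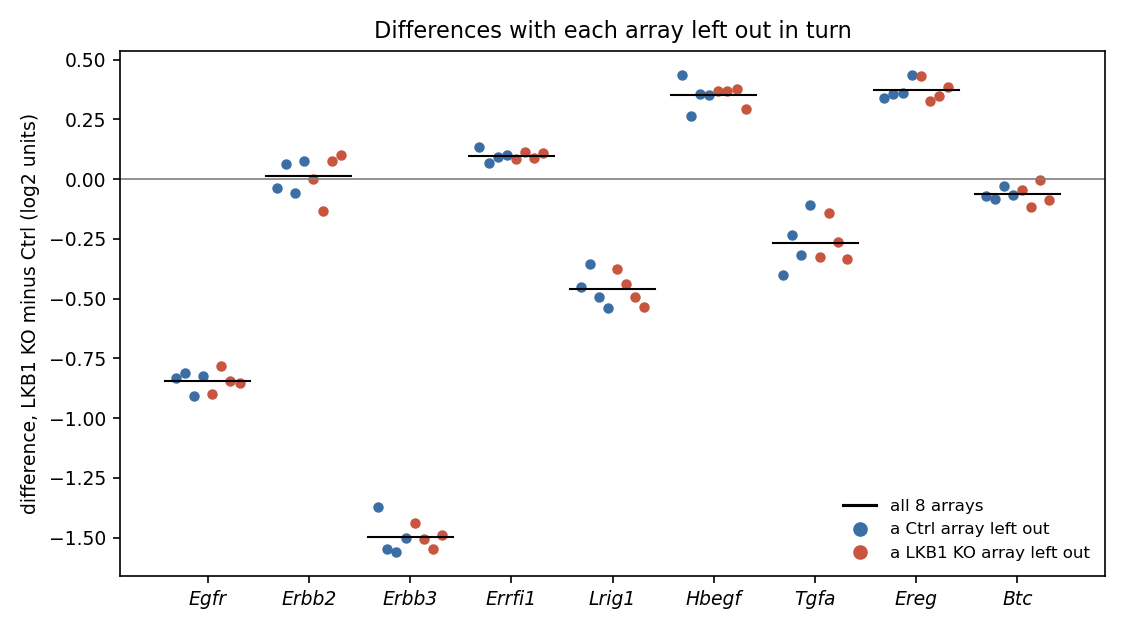
Difference of each gene in log2 units with all 8 arrays (black line) and with each array left out in turn (blue points, a Ctrl array left out, red points, an LKB1 KO array left out). Egfr stays between -0.91 and -0.78 and Erbb3 between -1.56 and -1.37, while Erbb2 lies on both sides of 0.

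These are tissue samples, in which fewer cells of a type and less RNA per cell cannot be told apart. Beside the falls of Egfr and Erbb3, markers of other cell types were lower in part. Of 6 endothelial markers, Clec4g (-0.83, limma adjusted p = 0.00663) and Kdr (-0.72, 0.0434) fell, and Stab2 (-0.66, 0.0509) lay just past the threshold. Pecam1 (-0.08), Cdh5 (-0.10) and Lyve1 (-0.15) differed little and were not called. The endothelial list mean per array ranged from 6.77 to 7.18 in Ctrl and from 6.49 to 6.78 in LKB1 KO. Of 6 macrophage markers, Csf1r fell (-0.78, adjusted p = 0.0378), with list means of 6.44 to 7.35 and 6.15 to 6.61. The neutrophil list had 0 of 5 members called, and its means of 4.55 to 5.81 in Ctrl and 4.03 to 4.52 in LKB1 KO did not overlap. Of its members, S100a8 and S100a9 were above the background gauge in all arrays and each stood at -1.07 (limma adjusted p = 0.164 and 0.179). Retnlg and Csf3r exceeded the gauge only in Ctrl 4. The list means of cholangiocytes (3.38 to 4.08 and 3.34 to 3.89, 0 of 5 called), stellate cells (4.65 to 5.34 and 4.51 to 4.93, 0 of 6) and lymphocytes (2.65 to 3.01 and 2.73 to 3.23, 0 of 5) overlapped. Those of erythroid cells also overlapped (6.09 to 6.32 and 5.25 to 6.19), with Alas2 lower among 3 members (-1.03, limma adjusted p = 0.0471). Of the others, Slc4a1 stood higher (0.38) but exceeded the background gauge only in LKB1 KO 2 (4.36). Hbb-b1 stood lower (-0.45), and neither of these was called. Epcam and Cftr of cholangiocytes, Ly6g of neutrophils and the B-cell markers Cd79a and Ms4a1 were below the background gauge in all 8 arrays. For the 6 hepatocyte markers, 0 of which was called, the differences lay between -0.31 (Apoa1) and 0.17 (Tat). Apoa1 and Ttr (-0.11) were lower in each LKB1 KO array than in each Ctrl array, while the groups of the other hepatocyte markers overlapped. The part of any of these cell types in the falls of Egfr and Erbb3 was not tested.

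Other genes of the pathway were taken from 6 lists with 93 measured genes. The lists were chosen with earlier results of these data known, which limits comparison of their counts with all genes. In all, 4 of the 93 rose and 2 fell, which compares with 0.487% and 1.49% of all genes, and the median difference was -0.04 log2 units. Among 7 further receptors and ligands of the family, only Nrg1 was called, and it rose. Nrg1 encodes neuregulin 1, a ligand of ERBB3 and ERBB4. Its log2 values were 2.94, 3.87, 4.34 and 3.81 in Ctrl 1 to 4 and 5.07, 5.08, 4.79 and 5.94 in LKB1 KO 1 to 4. The groups did not overlap, and the Ctrl arrays lay around the background gauge. The difference was 1.48 (SE 0.31, limma adjusted p = 0.0366, 2.79-fold). The call was lost without any single array except Ctrl 3 (adjusted p up to 0.0910) and without both LKB1 KO 2 and Ctrl 4 (0.100). Second by p came the neuregulin gene Nrg3, at 0.25 (adjusted p = 0.629), with 6 of 8 arrays below the gauge.

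The machinery that releases ligands from the cell surface had 0 of 10 genes called. Closest were Rhbdf1, an inactive rhomboid that governs ADAM17, at 0.30 (SE 0.13, limma adjusted p = 0.360) and the metalloprotease gene Adam9 at -0.37 (SE 0.18, adjusted p = 0.426). Among 20 genes of receptor turnover and other inhibitors, 1 fell and 0 rose. This was Lrig3, a relative of Lrig1, with log2 values of 5.64, 5.48, 5.64 and 5.78 in Ctrl 1 to 4 and 4.70, 4.95, 4.94 and 4.35 in LKB1 KO 1 to 4. Its arrays did not overlap between the groups, and the difference was -0.90 (SE 0.16, limma adjusted p = 0.0169, 1.87-fold lower). The call was lost without Ctrl 1 (adjusted p = 0.0510) or LKB1 KO 1 (0.0568). The receptor phosphatase gene Ptprj, next in that list, stood at -0.46 (adjusted p = 0.115).

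Of 19 measured adaptor and RAS-ERK cascade genes, 1 fell and 0 rose. Grb7, an adaptor that binds activated ERBB receptors, had log2 values of 7.70, 7.76, 7.38 and 7.38 in Ctrl 1 to 4 and 6.82, 6.78, 6.82 and 6.83 in LKB1 KO 1 to 4. The LKB1 KO arrays lay close together and below all Ctrl arrays. The difference was -0.74 (SE 0.13, limma adjusted p = 0.0187, 1.67-fold lower), and the call was lost when Ctrl 1, Ctrl 2 or any LKB1 KO array other than LKB1 KO 2 was left out (highest adjusted p 0.0641). Plcg1, the phospholipase that binds activated EGFR, stood at -0.59 (adjusted p = 0.115). In the PI3K-AKT arm 0 of 17 genes were called, and 3 (17.6%) had a difference above 0 (median -0.15), where 52.9% of all genes did. That share was also low in the adaptor and RAS-ERK list (31.6%) and the receptor turnover list (35.0%), and 57.1% to 65.0% in the remaining lists. LKB1 KO 2, the array farthest from its group, was the lowest LKB1 KO array for most of the 17 genes of the PI3K-AKT arm. Among them were Pik3cb (4.81), Akt2 (6.83) and Rictor (4.86). How far this array sets the share of 17.6% was not tested. Gsk3b (0.39, adjusted p = 0.252) and Tsc1 (-0.31, adjusted p = 0.353) came closest to the threshold in that arm.

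Genes that respond to ERK held 3 of the 4 pathway genes that rose. Of 20 measured, 3 rose and 0 fell, 13 (65.0%) had a difference above 0, beside 52.9% of all genes, and the median was 0.18. Dusp6, the phosphatase that inactivates ERK and is itself induced by it, had log2 values of 6.34, 7.43, 7.84 and 7.30 in Ctrl 1 to 4 and 9.04, 8.68, 9.13 and 9.06 in LKB1 KO 1 to 4. The groups were 0.84 log2 units apart, and the difference was 1.75 (SE 0.27, limma adjusted p = 0.00967, 3.37-fold), with adjusted p at most 0.0377 when single arrays were left out. The immediate early transcription factor genes Egr1 (2.22, SE 0.42, adjusted p = 0.0239) and Fos (1.49, SE 0.29, adjusted p = 0.0270) rose too. The call of Egr1 was lost when Ctrl 1 or any LKB1 KO array other than LKB1 KO 2 was left out (highest adjusted p 0.0815), and that of Fos without any array except Ctrl 3 or LKB1 KO 2 (up to 0.0873). The other 8 ERK feedback genes of the DUSP, Sprouty and SPRED families on the list, singled out after their values were seen, did not pass. Of them Dusp4 stood at 0.71 (adjusted p = 0.121), Spry4 at 0.63 (0.364) and Dusp5 at 0.25 (0.673), and the remaining 5 lay between -0.14 (Dusp7) and 0.01 (Spred2).

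**Figure D4:**
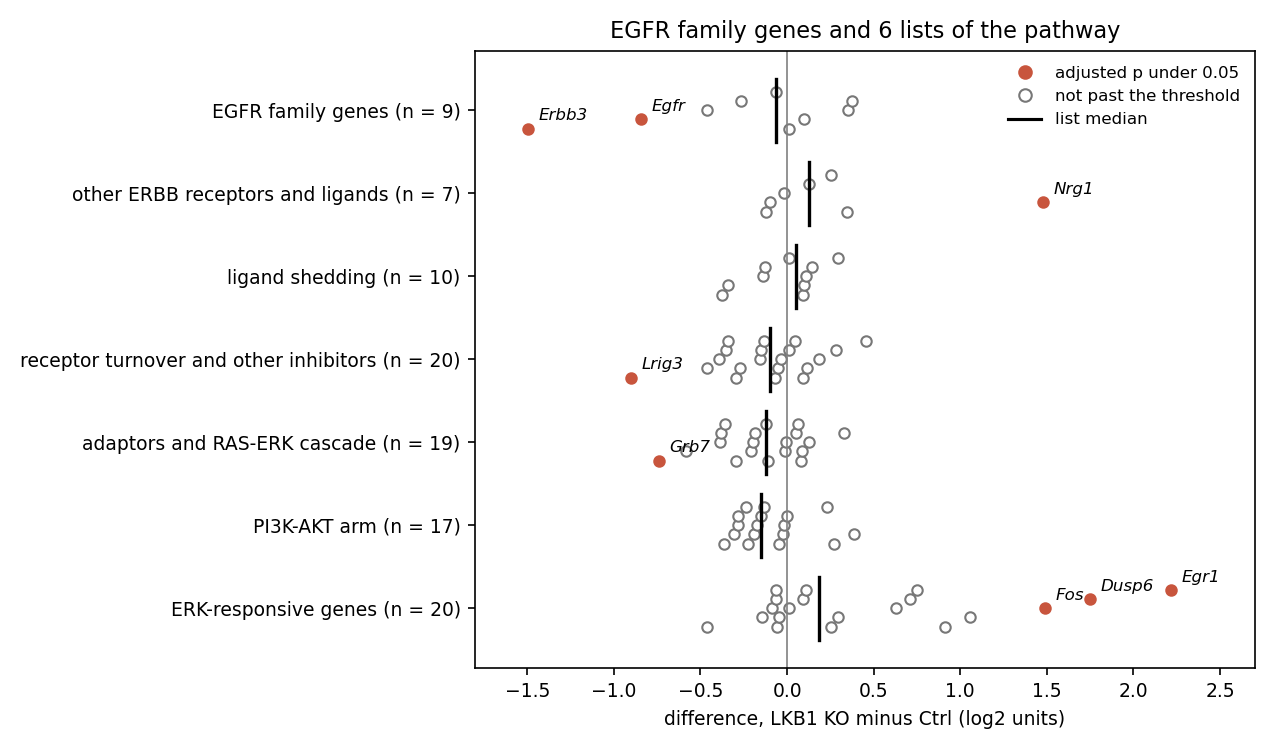
Differences in log2 units, LKB1 KO minus Ctrl, of the 9 EGFR family genes and of 93 genes on 6 pathway lists. Filled red points passed an adjusted p of 0.05 and are named, open points did not, and black bars are list medians, which run from -0.15 to 0.18. Calls lie below 0 for Erbb3, Egfr, Lrig3 and Grb7 and above 0 for Nrg1, Fos, Dusp6 and Egr1.

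The genes whose profile over the 8 arrays was most like that of Egfr were Mxd4, Smpd2 and Cp. After each gene's own mean was subtracted, they differed from Egfr by a root mean square of 0.08, 0.09 and 0.09 log2 units. Their differences between the groups were -0.90, -0.84 and -0.74, close to that of Egfr by the way they were picked. For Erbb3 the nearest genes were Mug1, Kcnn2 and Tmem220, at root mean squares of 0.15, 0.19 and 0.19 log2 units and with differences of -1.49, -1.25 and -1.31.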

How the data were processed

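The authors deposited log2 expression values, 1 for each array in every row of the table. RMA, which corrects background, normalizes and summarises probes, and Partek are named per the submitters' processing notes, without versions. RNA was extracted with TRIzol, amplified and labelled with biotin, per the labels' protocols. No coordinates are given, since no genome build or probe position is stated in the sources at hand. RMA compresses differences between dim probes, and related genes can share signal. Groups and replicate numbers came from sample titles.

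Of 25206 rows, 23185 had 1 symbol in the platform annotation, 2021 had none and 0 had several, and each symbol had 1 row. The log2 values were fitted with limma 3.58.1 in R 4.3.3 (lmFit, eBayes) with group as the term, and p-values were adjusted over the 23185 genes. If samples were not separate animals, p-values measure technical spread in part. Precision is limited by the 8 arrays. The fit was tested on simulated data.

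The members and lists were chosen with earlier results of these data known. Named genes are the 9 members, Stk11, up to 4 called genes per list (the 2 with the smallest p where fewer than 2 were called), and the 3 genes nearest each called member, placeholder symbols left out. Of 99 listed pathway genes, 6 without a symbol match were not analysed here. Alternatives were a replicate block, arrays left out, quantile normalization, median centring, removal of the dimmest genes, another prior, array weights, all rows and stricter thresholds. A fit without LKB1 KO 2 and Ctrl 4 was added after the data had been seen.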

Additional observations from a re-analysis of the deposited data

Results flagged for a closer look

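Within the groups of 4 arrays, 3 values stood far from the other arrays, among 44 groups of values examined for 22 genes, where chance gives about 1 in 20. Hbegf in LKB1 KO 4 was 4.85, while the other LKB1 KO arrays lay between 4.60 and 4.63. Rhbdf1 in Ctrl 3 was 4.05, below 4.40 to 4.45 in the other Ctrl arrays. Egr1 in LKB1 KO 2 was 7.90, below 8.89 to 8.997 in the other LKB1 KO arrays and above each Ctrl array. Without LKB1 KO 4 the difference of Hbegf was 0.29 (limma adjusted p = 0.481), without Ctrl 3 that of Rhbdf1 was 0.20 (0.579), and without LKB1 KO 2 that of Egr1 was 2.48 (0.0259).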

How the results depend on the processing

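Egfr and Erbb3 were called under each of the 18 alternatives run, with differences of -0.91 to -0.76 and -1.56 to -1.37 log2 units, and no other member was. The labels do not say whether equal replicate numbers pair the samples. Correlations of deviations between equal numbers ran from -0.11 to 0.18, and 1 of 4 Ctrl arrays was closest to its own number. With 4 arrays per group these values cannot decide whether the samples were paired. With the replicate block, 268 genes and 3 pathway genes were called, and Egfr had an adjusted p of 0.0401. The block ended the calls of Nrg1 (adjusted p = 0.0593), Lrig3 (0.0626), Grb7 (0.0626) and Egr1 (0.0629) and added that of Ier3. With single arrays left out, 213 to 491 genes and 1 to 7 pathway genes were called. Array weights gave 721 genes, and an adjusted p under 0.01 gave 139 genes and 1 pathway gene (Dusp6), with Egfr and Erbb3 among them. Median centring ended the call of Nrg1 (adjusted p = 0.0528). Erbb2, not called in any fit, changed sign with quantile normalization (-0.0384), median centring (-0.0243), array weights (-0.0937), without both LKB1 KO 2 and Ctrl 4 (-0.0679), and among single arrays left out (-0.13 to 0.10). Tgfa stood at 0.0160 without both of those arrays. The cause of these changes was not tested. The unequal fall of Erbb3 and Egfr lay between -0.74 and -0.54 with single arrays left out, and passed the exact permutation test in 7 of the 8 omissions. Signal near background limits Erbb2, Ereg and the Ctrl values of Nrg1.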

Other observations

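Of the remaining EGFR family genes, Erbb4, Egf, Epgn and Nrg2 lay below the background gauge in all 8 arrays, with differences of -0.02, 0.13, -0.10 and -0.12 log2 units. Epgn, the gene of epigen, and Ereg are neighbours with 0 annotated genes between them in RefSeq's GRCm38.p6 annotation, and the difference of Epgn was -0.10 (limma adjusted p = 0.860) beside 0.37 for Ereg. Nrg4, a neuregulin gene, was well above the gauge and varied widely among the Ctrl arrays, from 6.88 to 9.12, against 7.57 to 8.36 in LKB1 KO (difference 0.34, SE 0.44, adjusted p = 0.799). These genes were chosen after their values were seen.

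Among the genes that respond to ERK, 4 that were not called in the fit as reported had groups that did not overlap and stood higher in LKB1 KO. They were Ier3 (1.05, limma adjusted p = 0.0553), Myc (0.91, 0.111), Ccnd1 (0.75, 0.0909) and Dusp4 (0.71, 0.121). Of the 18 alternatives, 7 called Ier3 and 3 called Ccnd1. With the 3 called genes, 7 of the 20 did not overlap, beside 8.84% of all genes. The list was chosen with earlier results of these data known, which limits this comparison.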
